A study of Mus musculus with 29 samples.

Results

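The collagen genes are the 44 genes whose symbol has the form Col, number, a, number, such as Col1a1. They were taken by symbol from a table of 24411 gene symbols and, through their Ensembl identifiers, from a second table of 55487 identifiers, and all 44 were present in both. By textbook class they were 11 fibrillar genes, 8 basement membrane genes, 9 FACIT genes (fibril-associated collagens with interrupted triple helices) and 16 others. No measured value entered this rule, though it was set with earlier results of these data known.

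Collagens are secreted or membrane proteins whose chains wind into a triple helix, and each gene encodes 1 chain. Fibrillar types such as I and III give bone, tendon and dermis their tensile strength, type IV networks hold up basement membranes under epithelia and around vessels, nerves and muscle, and FACIT members sit on fibril surfaces. In a digit tip the main makers are osteoblasts, fibroblasts, chondrocytes, keratinocytes, vessel cells and Schwann cells, and regrowth of the tip lays down new bone matrix that is rich in type I collagen.

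The study measured RNA by poly(A), strand-specific sequencing of mouse digits in 29 libraries of 10 groups, from tissue beyond the joint at the base of the digit with the nail taken off. In the first table, digits of the left hindlimb had been cut through the terminal phalanx 5 days after nerve surgery on that side. The spared nerve injury (SNI) groups had 2 of the main branches of the sciatic nerve, the tibial and the common peroneal, cut and were collected on day 7, 14 or 21 after amputation (n = 3 each). The sham groups had the same surgery with the nerve left whole and were collected on day 7 (n = 3), day 14 (n = 3) and day 21 (n = 2). In the second table, all mice had SNI surgery: the amputated groups were collected on day 7 or 14 (n = 3 each), and the unamputated groups carry the same day labels (n = 3 each). The labels of the unamputated groups name days after amputation and a regenerate tissue while their treatment label says that no amputation was done, and the treatment label was followed. In this model the sural branch of the sciatic nerve is spared, so some nerve supply can remain. Strain, sex and age are not given in the labels used here.

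Total counts were 35654192 to 56809440 per library in the time course table and 31274245 to 43315729 in the amputation table. Keratinocyte markers summed to 30400 to 63600 CPM (counts scaled to library size by the TMM method) over the time course and 41400 to 71300 CPM in the amputation table, and osteoblast markers to 77.8 to 784 CPM and 71.1 to 409 CPM. The skeletal muscle gene Myh4 had a median under 0.1 CPM over the libraries of each table. Schwann cell markers, here 4 genes, summed to 178 to 254 CPM in SNI day 14 libraries, against 201 to 233 CPM in sham day 14 libraries, and to 246 to 291 CPM in the unamputated SNI libraries of day 14, so the SNI and sham levels overlapped on day 14. In bulk tissue, fewer cells of a type and less RNA per cell cannot be told apart. The labels call the samples biological replicates, and the p-values measure the spread between them. The spread of the genes between replicates was wide in the time course (common biological coefficient of variation 0.393) and narrower in the amputation table (0.17).

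The promoter windows of 4 genes are shown here because the results turn on these genes: Col28a1 is the member with the steadiest difference, Col1a2 stands for the type I chains that dominate the counts, and Col4a1 and Col4a2 lie head to head. Each window runs from 250 bases before to 50 bases after the RefSeq gene start (GRCm38.p6), 5′ to 3′ on the gene's strand. Capitals mark 4 short motifs searched on both strands: TATAAA (the TATA box), then CCAAT (bound by NF-Y), then GGGCGG (the core of SP1 sites) and last CTTTGT (letters bound by SOX proteins). In these windows no match overlaps another.
Col28a1, chr6:8192568-8192867, minus strand: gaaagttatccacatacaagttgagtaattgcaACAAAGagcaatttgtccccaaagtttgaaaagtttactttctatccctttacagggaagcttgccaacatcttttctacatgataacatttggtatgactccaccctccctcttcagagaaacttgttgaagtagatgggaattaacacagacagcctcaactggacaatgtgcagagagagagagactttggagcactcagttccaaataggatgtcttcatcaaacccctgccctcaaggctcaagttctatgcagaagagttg
Col1a2, chr6:4505368-4505667, plus strand: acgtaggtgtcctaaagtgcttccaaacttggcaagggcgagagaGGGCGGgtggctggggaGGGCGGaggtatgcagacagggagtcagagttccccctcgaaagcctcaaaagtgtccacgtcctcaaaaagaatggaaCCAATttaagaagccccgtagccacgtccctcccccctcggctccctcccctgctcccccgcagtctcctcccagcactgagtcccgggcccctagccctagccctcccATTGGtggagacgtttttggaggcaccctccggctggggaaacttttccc
Col4a1, chr8:11312777-11313076, minus strand: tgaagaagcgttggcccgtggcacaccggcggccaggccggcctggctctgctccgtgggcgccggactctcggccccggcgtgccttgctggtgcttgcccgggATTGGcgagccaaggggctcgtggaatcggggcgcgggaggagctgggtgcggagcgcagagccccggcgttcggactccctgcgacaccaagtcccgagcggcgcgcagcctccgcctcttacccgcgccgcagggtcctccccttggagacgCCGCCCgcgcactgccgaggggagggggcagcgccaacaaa
Col4a2, chr8:11312555-11312854, plus strand: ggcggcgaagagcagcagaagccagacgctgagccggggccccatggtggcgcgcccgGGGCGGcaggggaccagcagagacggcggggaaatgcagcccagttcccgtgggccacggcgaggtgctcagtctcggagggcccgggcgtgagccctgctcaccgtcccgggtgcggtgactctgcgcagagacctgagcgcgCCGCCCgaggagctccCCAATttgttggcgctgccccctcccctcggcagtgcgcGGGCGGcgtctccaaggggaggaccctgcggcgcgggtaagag

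The Col28a1 window held 1 CTTTGT and none of the other 3 motifs, and its GC content was 41.7%, against 61% for Col1a2, 74% for Col4a1 and 73.7% for Col4a2. The Col1a2 window held 2 CCAAT and 2 GGGCGG. The Col4a1 and Col4a2 windows are read from opposite strands and share 78 bases, chr8:11312777-11312854. Of 38 windows found for 35 of the collagen genes, 23 held GGGCGG, 13 held CCAAT, 5 held TATAAA and 5 held CTTTGT, and over all 32851 windows of the same length the shares were 35.7%, 37.4%, 13.6% and 18.7%. A match describes letters only.

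Levels between genes were compared per length, as TPM (the length-scaled share of each library) computed from the counts and the longest transcript of each gene. Type I chains led both tables. Col1a2 averaged 1662 ± 1277 TPM and Col1a1 1482 ± 1476 TPM over the time course (SD, n = 17 libraries of 6 groups), and in the amputation table Col1a1 averaged 861 ± 894 TPM and Col1a2 778 ± 664 TPM (SD, n = 12 libraries of 4 groups). With SDs this large the order of these chains is not resolved. Col3a1, the fibrillar partner of type I in skin and vessels, followed with 733 ± 591 TPM and 448 ± 228 TPM.

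In each other class the same gene stood first in both tables. Col17a1, the hemidesmosome collagen by which keratinocytes grip their basement membrane, led the genes outside the 3 named classes with 208 ± 163 TPM in the time course and 456 ± 83.1 TPM in the amputation table. Among basement membrane genes Col18a1, the source of endostatin, was first with 53.8 ± 34.9 TPM and 63.7 ± 10.5 TPM, although Col4a1 was first with the mean transcript length. Among FACIT genes Col16a1 was first with 36.6 ± 31.8 TPM and 37.1 ± 11.4 TPM. The cartilage collagens were low: Col2a1, the chief collagen of cartilage, averaged 6.46 ± 5.97 TPM and 5.17 ± 1.30 TPM, and Col10a1, made by hypertrophic chondrocytes, 9.23 ± 4.40 TPM and 10.5 ± 3.28 TPM.

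The chains of the other named types filled the middle and the low end. Type IV ran from Col4a1 (49.8 ± 43.3 and 48.7 ± 13.8 TPM) and Col4a2 down to Col4a3, a chain of specialised basement membranes, at 0.174 ± 0.182 and 0.330 ± 0.120 TPM. Type VI had Col6a1 at 178 ± 125 and 142 ± 48.5 TPM, while Col6a4, Col6a5 and Col6a6 were below 0.2 TPM on average in both tables. Types IX and XI, which coat and nucleate cartilage fibrils, had Col9a1 at 0.448 ± 0.342 and 0.184 ± 0.142 TPM and Col11a1 at 17.8 ± 19.2 and 8.55 ± 7.86 TPM. Over 1 TPM on average were 33 of 44 members in both tables, and all 44 passed the low-count filter of the tests. With the mean transcript length in place of the longest, 9 of the first 10 genes were shared in each table.

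**Figure D1:**
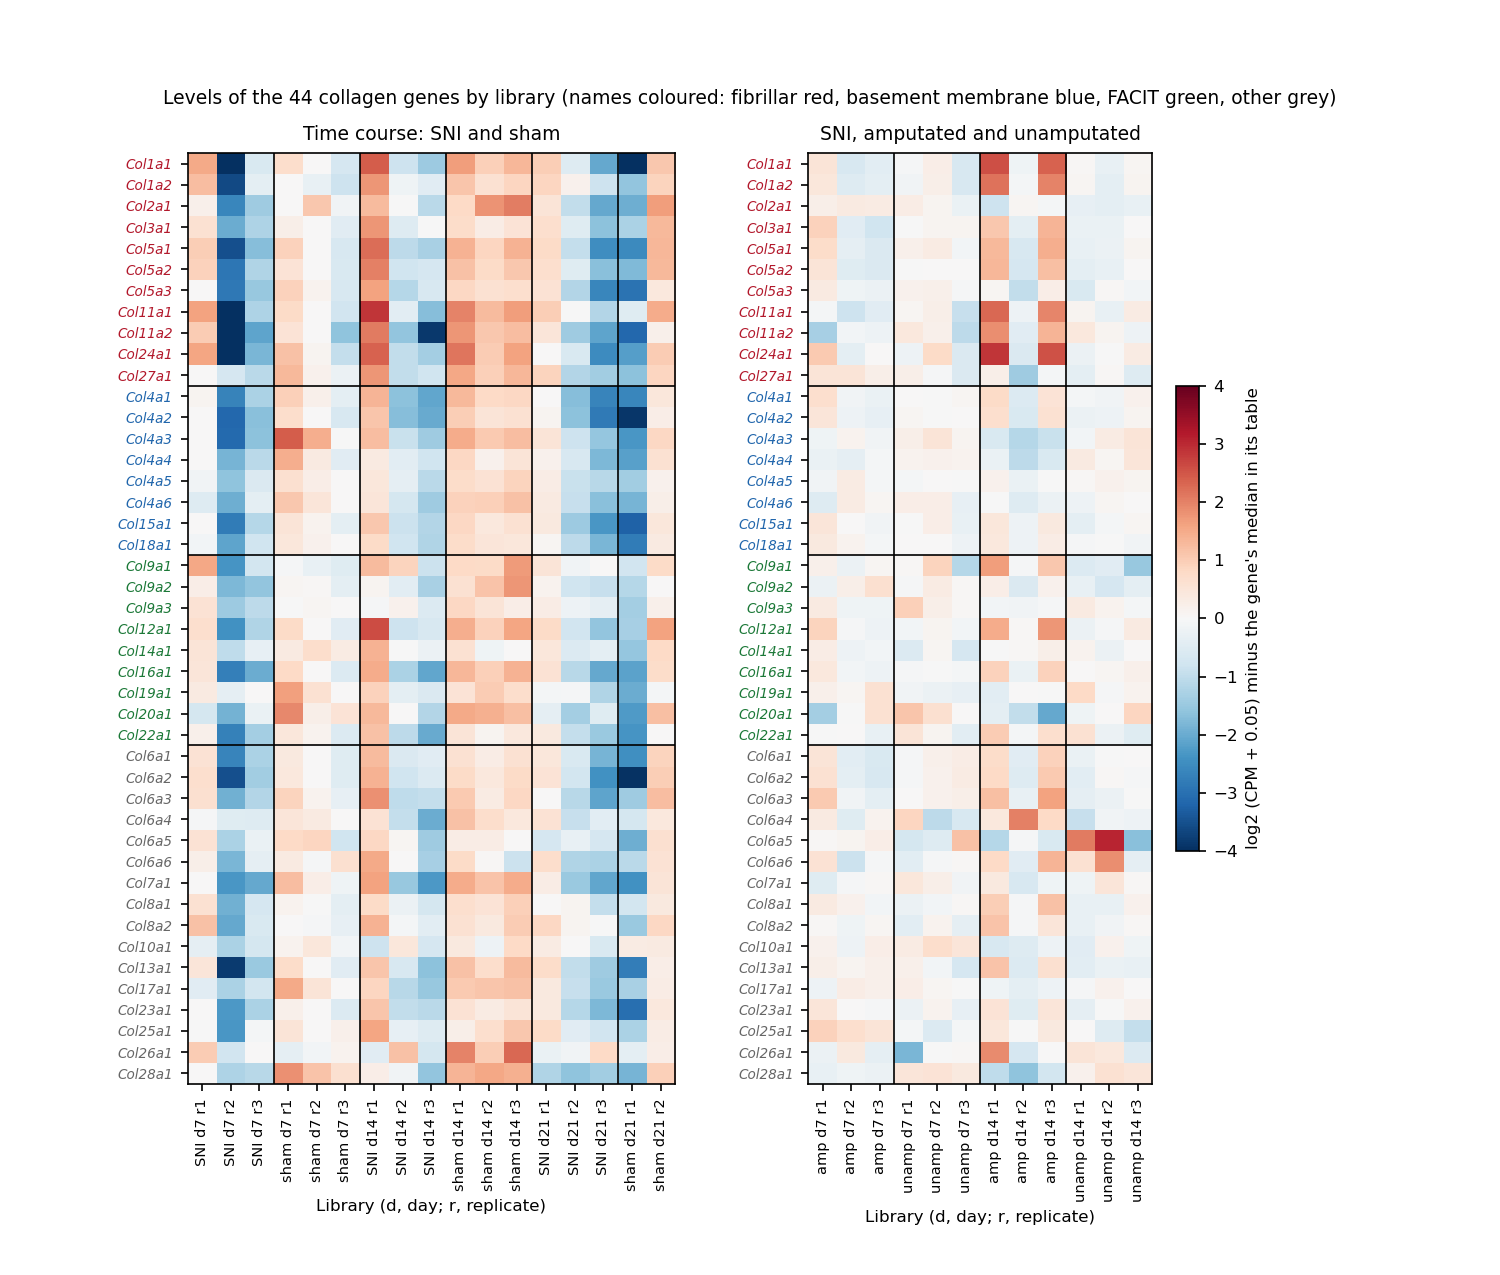
Level of each of the 44 collagen genes (rows, grouped by class) in each library (columns, grouped by condition and day), as log2 (CPM + 0.05) minus the gene's median in its table, with the colour scale ending at -4 and 4. SNI day 7 replicate 2 and sham day 21 replicate 1 are low in nearly every row, and amputated day 14 replicates 1 and 3 are high in most fibrillar rows.

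The collagen share of all counts was 2.08%, 0.086% and 0.544% in SNI day 7 libraries, against 1.29%, 0.949% and 0.618% in sham day 7 libraries. It was 3.6%, 0.619% and 0.568% in SNI day 14 libraries, against 2.21%, 1.53% and 1.91% in sham day 14 libraries. On day 21 it was 1.66%, 0.734% and 0.312% in SNI libraries, against 0.142% and 1.97% in sham libraries. The day 14 SNI group thus held both the highest share of the time course and 2 shares below all sham libraries of that day. In the amputation table the share was 0.914%, 0.53% and 0.539% in amputated day 7 libraries, against 0.654%, 0.728% and 0.531% in unamputated ones, and 1.95%, 0.504% and 1.83% in amputated day 14 libraries, against 0.612%, 0.588% and 0.67% in unamputated ones. The widest 95% Wilson interval of these shares spanned 0.0097 percentage points, which covers counting error only. The type I chains gave 25.2% to 71.5% of collagen reads in the time course and 29.5% to 68.3% in the amputation table.

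Chains that assemble into 1 molecule kept steadier ratios in the amputation table than in the time course. Per length, Col1a1 to Col1a2 was 0.899 to 1.28 over the 12 amputation libraries and 0.0931 to 1.18 over the 17 time course libraries. Col4a1 to Col4a2, which share a promoter region, was 1.09 to 1.33 and 1.02 to 2.7, and Col6a1 to Col6a2 was 1.28 to 1.51 and 1.31 to 4.22. The extremes came from a pair of libraries. Without SNI day 7 replicate 2 and sham day 21 replicate 1, the time course ranges were 0.312 to 1.18 for type I, 1.02 to 1.5 for Col4a1 to Col4a2 and 1.31 to 2.12 for Col6a1 to Col6a2. Col1a1 to Col1a2 was 0.199 in SNI day 7 replicate 2 and 0.0931 in sham day 21 replicate 1, lower than in all other libraries. The Col11a1 to Col11a2 ratio had the widest range of these in the amputation table, 0.482 to 1.93.

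Those 2 libraries also had the lowest TMM factors, 0.761 for SNI day 7 replicate 2 and 0.633 for sham day 21 replicate 1, and they enter the SNI and sham comparisons of days 7 and 21. All 44 collagen genes were lower in them than the median of the other 15 libraries, by a median of -2.42 on the log2 scale (range -5.71 for Col1a1 to -0.46 for Col10a1). Over 15452 genes with a sequence the median difference was -0.07, and 51.9% were lower. Across those genes the difference had a Pearson r of -0.54 with log10 transcript length and -0.18 with GC content, and across the 44 collagens the values were -0.20 and -0.28. The median collagen transcript had 5989 bases and 55.1% GC, against 3238 bases and 49.9% GC over all genes. In SNI day 7 replicate 2, 4 neutrophil markers summed to 12100 CPM, against 5.4 to 230 CPM in the other time course libraries. Schwann cell markers of sham day 21 replicate 1 summed to 249 CPM and of sham day 21 replicate 2 to 244 CPM, while Sox10, the Schwann lineage factor, was at 0.349 CPM in replicate 1 and 6.21 CPM in replicate 2. What part length, RNA quality or cell content had in the low collagen values was not tested.

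SNI against sham asks what denervation does to collagen expression in amputated digits. Averaged over the 3 days, 41 of 44 collagen genes had a negative log2 fold change, with a median of -0.55, against a median of 0.01 over all 16084 genes tested. None passed an adjusted p of 0.05 in the quasi-likelihood test of edgeR, where 0% of all genes passed. At an unadjusted p under 0.05 there were 9 members, all with a negative value, against 14% of all genes in either direction. DESeq2 called 1 member, Col28a1, among 153 genes called, and limma voom with quality weights called 0. The negative values covered all 8 basement membrane genes (median -0.84), 10 of 11 fibrillar genes (median -0.40), 8 of 9 FACIT genes (median -0.43) and 15 of 16 other genes (median -0.48).

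Markers of other cell types differed between the same groups. The 4 keratinocyte markers summed to 40300 to 47700 CPM in SNI day 7 libraries, against 49700 to 57400 CPM in sham ones, and to 39000 to 55200 CPM in SNI day 14 libraries, against 57200 to 63600 CPM in sham ones. On day 14 the 4 mural cell markers summed to 121 to 339 CPM in SNI libraries, against 341 to 392 CPM in sham ones, and the 5 fibroblast markers to 2250 to 3100 CPM in SNI libraries, against 1520 to 1600 CPM in sham ones. Keratinocyte and mural sums were thus lower and fibroblast sums higher in SNI digits on day 14, with no overlap. Their part in the collagen values was not tested.

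By day, the median log2 fold change of SNI against sham was -0.81 on day 7, -0.65 on day 14 and -0.26 on day 21, against 0.02, 0.03 and -0.10 over all genes. In edgeR 0% of genes and 0 members were called on each day. Members at an unadjusted p under 0.05 numbered 5 on day 7 (13.6% of all genes), 3 on day 14 (5.93%) and 1 on day 21 (2.2%), each with a negative value. DESeq2 called no member on any day, among 40, 61 and 12 genes called on days 7, 14 and 21. Voom called 29 members lower on day 7 and 32 on day 14 among 7749 and 8737 genes called, and 0 on day 21.

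**Figure D2:**
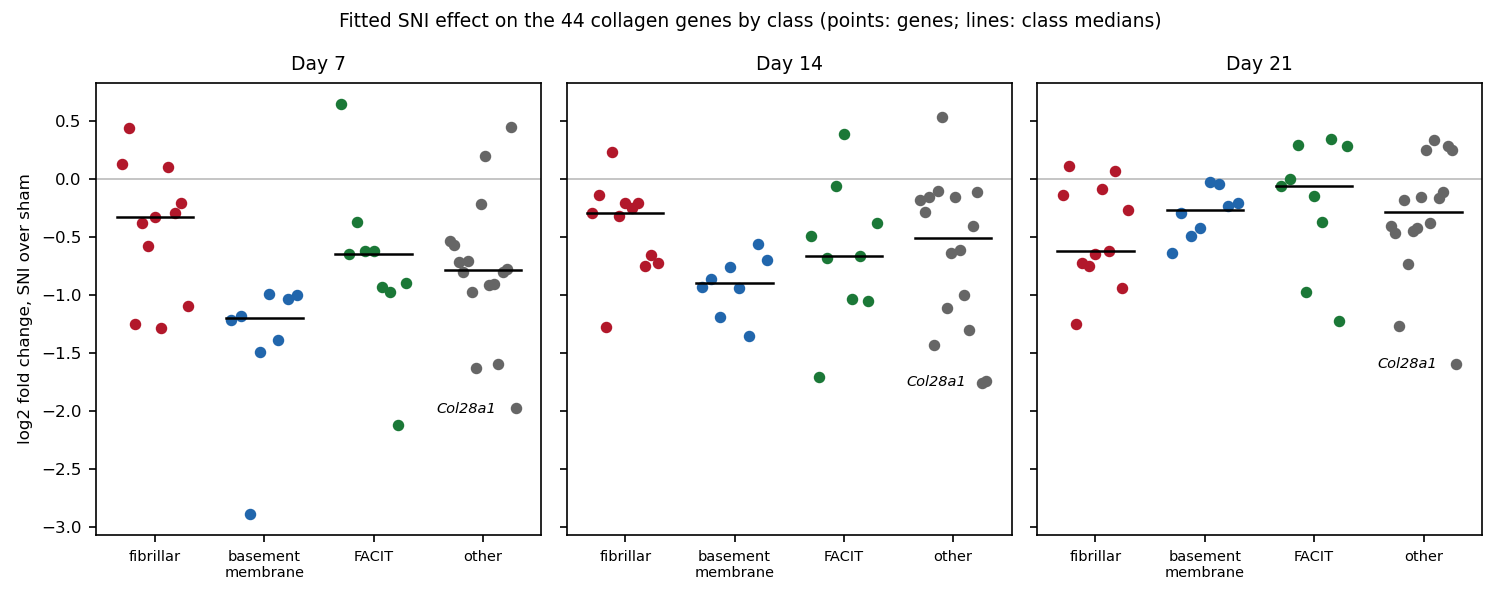
Fitted log2 fold change of SNI over sham (vertical axis) for each of the 44 collagen genes by class (horizontal axis) on day 7, 14 and 21, with class medians as lines. Basement membrane genes lie below 0 on all 3 days, and Col28a1 lies at -1.98, -1.75 and -1.60.

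The size and direction of this shift depended on a few libraries. Leaving out 1 library gave medians of -1.80 (without SNI day 7 replicate 1) to -0.35 (without SNI day 7 replicate 2) on day 7, and of -1.74 with 0 positive members (without SNI day 14 replicate 1) to -0.27 with 17 positive (without SNI day 14 replicate 3) on day 14. On day 21 it was -1.10 without SNI day 21 replicate 1, and averaged over days it was -0.92 without SNI day 14 replicate 1. Without SNI day 7 replicate 2 and sham day 21 replicate 1, the averaged median was -0.64, and the medians by day were -0.35 on day 7 with 14 positive members, -0.65 on day 14 and -1.06 on day 21 with 0 positive members. Without sham day 21 replicate 2 alone, the day 21 median was 1.61 and the averaged median 0.19. With 1 surrogate variable in the fit, an alternative chosen after seeing the data, the medians were 0.42 on day 7, 0.30 on day 14, -0.17 on day 21 with 11 positive members, and 0.17 averaged with 27 positive members. That variable had an absolute Pearson r of 0.995 with the main axis of difference between libraries (first principal component, 63.7% of variance). On day 14 the axis was at -62.4, 23.9 and 56.3 in SNI libraries, against -74.2, -59.6 and -65.0 in sham ones. A fit with this variable can thus also take away part of an SNI difference. With the replicate number as a block (whether the numbers pair samples is not known), the median was -0.89 on day 14 (6 members at an unadjusted p under 0.05) and -0.90 averaged (0 positive, 14 at an unadjusted p under 0.05), with 0 called. Fold changes followed transcript length across all genes (r = -0.52 on day 7, -0.43 on day 14 and 0.19 on day 21), and across the collagens r was -0.28, 0.36 and -0.34.

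Col28a1 encodes a collagen that in mice is made chiefly by Schwann cells and lies in basement membranes of peripheral nerve. It had the smallest p of all collagens in the averaged comparison. Its level was 3.14, 1.31 and 1.42 CPM in SNI day 7 libraries, against 11.4, 7.03 and 4.89 CPM in sham day 7 libraries. It was 3.80, 2.86 and 1.03 CPM in SNI day 14 libraries, against 8.08, 9.34 and 8.47 CPM in sham day 14 libraries. On both days every SNI library was below every sham library. On day 21 it was 1.34, 0.986 and 1.17 CPM in SNI libraries, against 0.837 and 6.18 CPM in sham libraries, so the groups overlapped through sham day 21 replicate 1.

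The averaged log2 fold change of Col28a1 was -1.78 ± 0.37 (SE) with an edgeR adjusted p of 0.288, and DESeq2 gave -1.77 ± 0.36 with an adjusted p of 0.00122. It was -1.98 ± 0.63 on day 7, -1.75 ± 0.62 on day 14 and -1.60 ± 0.68 on day 21, none of them called in edgeR or DESeq2, while voom called it lower on days 7 and 14 (adjusted p 0.00312 and 0.00106). Without the low libraries the averaged value was -1.95, and without sham day 21 replicate 2 it was -1.08, each with 1 library left in the sham day 21 group. With the surrogate variable, which can also take away part of an SNI difference, the averaged value was -1.14 ± 0.25 (adjusted p 0.0934, edgeR). Schwann cell markers, taken as a sum, were lower alongside on days 7 and 21. Their sum over 4 genes was 97.3 to 164 CPM in SNI day 7 libraries, against 165 to 283 CPM in sham ones, and 122 to 132 CPM in SNI day 21 libraries, against 244 to 249 CPM in sham ones, while the day 14 groups overlapped. All 4 were found, and none had a median under 0.1 CPM over the libraries. The day 7 sums nearly met, at 164 CPM in SNI and 165 CPM in sham digits. A sum need not hold for each gene: Sox10 was far lower in sham day 21 replicate 1 than in replicate 2, though their sums were close. The part of Schwann cell markers in these Col28a1 values was not tested.

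**Figure D3:**
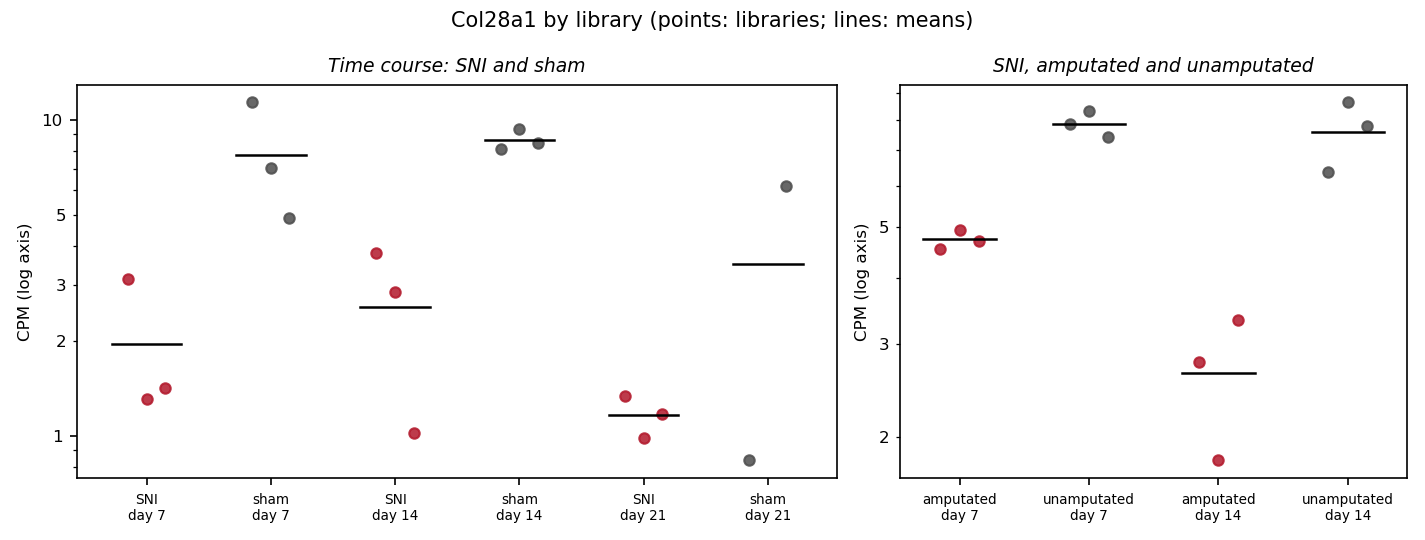
CPM of Col28a1 on log axes, in the time course (left) and the amputation table (right); points are libraries and lines are group means. Col28a1 lies lower in SNI than in sham libraries on days 7 and 14 and lower in amputated than in unamputated libraries on both days.

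Of the type IV chains, Col4a5 and Col4a6 had SNI and sham groups that did not overlap on days 7 and 14. Col4a6, a chain of skin and muscle basement membranes, was at 6.59, 2.40 and 7.11 CPM in SNI day 7 libraries, against 20.0, 13.1 and 9.44 CPM in sham ones, and at 13.2, 5.81 and 3.51 CPM in SNI day 14 libraries, against 17.8, 18.3 and 21.5 CPM in sham ones. The sham libraries were the higher ones on both days, also in Col4a5, its partner chain. Col4a3 had the most negative value of any member on day 7, -2.90 ± 1.15 (adjusted p 0.301, edgeR), with 0.380, 0 and 0.0886 CPM in SNI libraries, against 2.25, 1.12 and 0.378 CPM in sham libraries.

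In all, 9 of 44 members had every SNI library below every sham library on day 7 (23.8% of all genes) and 6 on day 14 (12.2%). The 9 were Col4a5, Col4a6, Col6a4, Col10a1, Col17a1, Col18a1, Col20a1, Col25a1 and Col28a1, and the 6 were Col4a5, Col4a6, Col9a2, Col9a3, Col17a1 and Col28a1. None had every SNI library above every sham library, against 13.7% of genes on day 7 and 11% on day 14. On both days the share of members that lay lower was near that of all genes.

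Other members with the smallest p were spread over the classes, and none was called in edgeR; voom called Col9a2 lower on day 14 (adjusted p 0.00288). Averaged over days, Col20a1, a FACIT gene, had a log2 fold change of -1.47 ± 0.52, Col10a1 -0.64 ± 0.23 and Col17a1 -1.03 ± 0.39, each with an adjusted p of 0.337. On day 14, Col9a2, a chain of cartilage type IX, had -1.71 ± 0.58 and Col26a1 -1.76 ± 0.64 (adjusted p 0.578 each), and on day 21 Col6a3, the largest type VI chain, had -1.27 ± 0.97 and Col20a1 -1.23 ± 0.97 (adjusted p 1.0 each).

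Type I collagen showed no shared direction. Col1a1 was at 6641, 51.6 and 1510 CPM in SNI day 7 libraries, against 3742, 2317 and 1442 CPM in sham day 7 libraries. It was at 12379, 1294 and 844 CPM in SNI day 14 libraries, against 7461, 4526 and 5852 CPM in sham day 14 libraries, and at 4575, 1617 and 564 CPM in SNI day 21 libraries, against 99.0 and 4881 CPM in sham day 21 libraries. The groups overlapped on all 3 days, and the SNI day 14 libraries held the highest value of the time course beside 2 values below every sham library of that day. The averaged log2 fold change was -0.10 ± 0.85 for Col1a1 and 0.14 ± 0.55 for Col1a2.

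Later days were set against day 7 to follow collagen expression through regrowth. In sham digits all 11 fibrillar genes had a positive value on day 14, with a median of 1.23, and 38 of 44 members were positive (median 0.59, against -0.01 over all genes). Voom called 14 members, all higher, among 1780 genes called in either direction, and DESeq2 called 0 members among 2 genes called. In edgeR 0 members and 0% of genes were called, and 2 members had an unadjusted p under 0.05 (1.96% of genes). Those 2 were Col26a1 at 2.15 ± 0.65 and Col9a2 at 1.35 ± 0.58, and Col9a1, another type IX chain, came next at 1.52 ± 0.83 (adjusted p 1.0 each, edgeR). Col9a2 was at 2.96, 4.27 and 6.59 CPM in sham day 14 libraries, against 2.01, 1.96 and 1.45 CPM in sham day 7 libraries, with no overlap.

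In SNI digits the day 14 values were positive for 42 of 44 members (median 0.87, against 0.04 over all genes), with 0 members called and 0 at an unadjusted p under 0.05 in edgeR (0% and 3.03% of genes). DESeq2 and voom called 0 members, among 1 and 14 genes called. The smallest p values belonged to Col12a1, a FACIT gene of tendon and dense connective tissue, at 1.72 ± 1.03, Col25a1 at 1.13 ± 0.72 and Col20a1 at 1.37 ± 0.89 (adjusted p 0.876 each). The median was -0.24 without SNI day 14 replicate 1 and 1.86 without SNI day 7 replicate 1.

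Day 21 was set against day 7 in the same way. In SNI digits 33 members were positive against day 7 (median 0.19), with 0 called and 0 at an unadjusted p under 0.05 in edgeR (0% and 3.87% of genes). DESeq2 and voom called 0 members, among 10 and 1371 genes called. Col10a1 at 0.69 ± 0.38, Col28a1 at -0.75 ± 0.62 and Col19a1 at -0.48 ± 0.67 had the smallest p in edgeR. That median turned with single libraries: it was -0.57 with 3 positive members without SNI day 21 replicate 1, -0.26 with 7 positive without SNI day 7 replicate 2, -0.03 with 21 positive without SNI day 7 replicate 3 and 1.26 with 42 positive without SNI day 7 replicate 1. In sham digits 15 were positive (median -0.38), with 0 called by DESeq2 and voom (among 32 and 0 genes called). In edgeR 0 were called and 1 had an unadjusted p under 0.05 (0% and 20.3% of genes). That 1 was Col19a1 at -1.80 ± 0.76 (adjusted p 0.227), followed by Col28a1 at -1.13 ± 0.70 and Col17a1 at -1.10 ± 0.75. The sham day 21 group is 2 libraries that differ widely: the median was 0.29 without replicate 1 and -2.41 without replicate 2, each with 1 library left in the group.

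Amputated against unamputated SNI digits asks what amputation does in denervated tissue, and this table had the tighter replicates. On day 7, no collagen passed the edgeR test, against 1.35% of all genes. Values lay on both sides of 0, with 24 positive and a median of 0.04 (-0.22 without amputated day 7 replicate 1 and 0.14 without amputated day 7 replicate 2), and 3 members had an unadjusted p under 0.05 (15.1% of genes). They were Col28a1 at -0.73 ± 0.20 (adjusted p 0.1), Col25a1, a transmembrane collagen, at 0.98 ± 0.30 (0.149) and Col10a1 at -0.42 ± 0.18 (0.281). DESeq2 and voom each called 1 member, Col28a1, in fits whose shares over all genes are not given here. Col1a1 was at 1887, 860 and 985 CPM in amputated day 7 libraries, against 1288, 1594 and 845 CPM in unamputated ones, a log2 fold change of 0.00 ± 0.59.

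Col25a1 was at 1.73, 1.45 and 1.28 CPM in amputated day 7 libraries, against 0.832, 0.593 and 0.838 CPM in unamputated ones. It was 1 of 3 members with every amputated library above every unamputated one on day 7, beside Col19a1 and Col27a1 (10.4% of genes). The reverse held for Col4a4, Col10a1 and Col28a1 (8.86% of genes).

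On day 14, 3 collagens fell in amputated digits: Col28a1, Col4a3 and Col4a4. In this direction 1.44% of all genes were called, and 1.32% were called higher, among them no collagen. At an unadjusted p under 0.05 there were 19 members, 13 higher and 6 lower, against 24% of all genes. DESeq2 called 11 (7 higher, 4 lower) and voom 21 (18 higher, 3 lower), in fits whose shares over all genes are not given here. The median of all 44 was 0.45, against 0.01 over all genes, with fibrillar genes at a median of 1.07 and basement membrane genes at 0.07. The median of all 44 was 0.25 without amputated day 14 replicate 1 and 0.73 without amputated day 14 replicate 2.

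Col28a1 was at 2.78, 1.81 and 3.34 CPM in amputated day 14 libraries, against 6.37, 8.63 and 7.80 CPM in unamputated day 14 libraries. On day 7 it was at 4.56, 4.95 and 4.72 CPM in amputated libraries, against 7.85, 8.31 and 7.43 CPM in unamputated ones. The groups were apart on both days, and the amputated day 14 libraries lay below the amputated day 7 libraries as well. The day 14 log2 fold change was -1.52 ± 0.20 (adjusted p 0.00673, edgeR), and it was called in all 18 alternative fits, at -1.72 to -1.31. Set beside the time course, unamputated SNI digits had Col28a1 in the range of sham digits, but the tables were normalized apart and this was not tested. The tables also differed for like groups. Amputated SNI day 7 libraries all lay higher here than in the time course, and the highest reached the sham day 7 range. On day 14 the amputated SNI libraries of both tables overlapped.

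Schwann cell markers again differed alongside Col28a1. They summed to 114 to 128 CPM in amputated day 14 libraries, against 246 to 291 CPM in unamputated ones, and to 133 to 187 CPM in amputated day 7 libraries, against 254 to 263 CPM in unamputated ones. The whole list did not move as 1: Sox10 was at 9.67, 9.87 and 9.67 CPM in amputated day 14 libraries, against 10.1, 9.71 and 8.78 CPM in unamputated ones, with overlap. The part of Schwann cell content in the Col28a1 values was not tested.

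Col4a3 and Col4a4 encode chains of the type IV network found in kidney and a few other specialised membranes. Col4a3 was at 0.794, 0.542 and 0.649 CPM in amputated day 14 libraries, against 1.14, 1.59 and 1.79 CPM in unamputated ones, a log2 fold change of -1.18 ± 0.26 (adjusted p 0.0413, edgeR). Col4a4 was at 1.73, 0.993 and 1.36 CPM, against 2.71, 2.22 and 2.96 CPM, a log2 fold change of -0.94 ± 0.23 (adjusted p 0.0484). Neither pair of groups overlapped, but both genes are low and both calls were fragile: of 18 alternative fits, Col4a3 was called in 8 and Col4a4 in 6. The other 4 type IV chains were not called on day 14, and the major pair Col4a1 and Col4a2 had 218, 88.1 and 186 CPM and 171, 70.9 and 166 CPM in amputated libraries, against 121, 118 and 146 CPM and 92.1, 94.6 and 116 CPM in unamputated ones, with overlap.

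**Figure D4:**
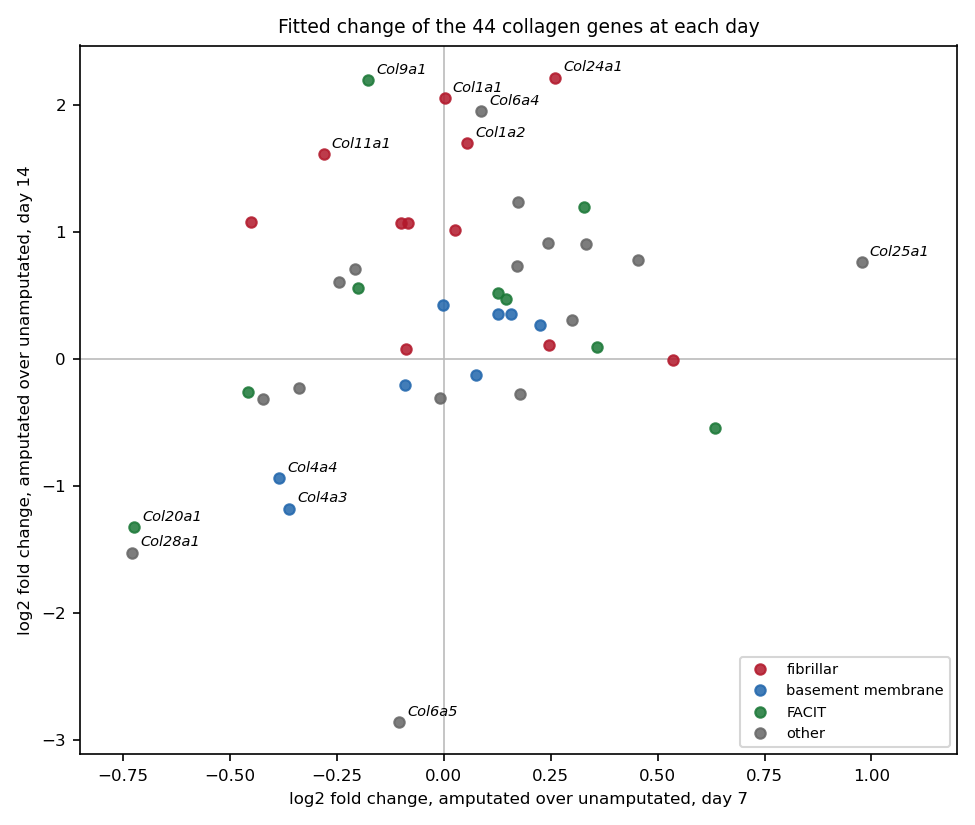
Fitted log2 fold change of amputated over unamputated SNI digits on day 7 (horizontal axis) and day 14 (vertical axis) for the 44 collagen genes, coloured by class. Fibrillar genes spread upward on day 14 (Col1a1 at 2.06, Col24a1 at 2.22) and lie between -0.45 and 0.53 on day 7, and Col28a1 is below 0 on both days.

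Of the fibrillar genes, Col1a1, Col1a2, Col11a1 and Col24a1 were high in replicates 1 and 3 of the amputated day 14 libraries, a pattern that not all fibrillar genes shared: Col2a1 was lowest in replicate 1. Col1a1 was at 7901, 1188 and 6832 CPM in amputated day 14 libraries, against 1365, 1080 and 1387 CPM in unamputated ones, and Col1a2 at 5586, 1177 and 4911 CPM, against 1298, 952 and 1341 CPM. Col11a1, a chain that starts fibrils, was at 96.3, 16.8 and 76.0 CPM, against 21.1, 16.0 and 24.7 CPM. Col24a1, a fibrillar gene of bone, was at 6.38, 0.542 and 5.16 CPM, against 0.707, 0.824 and 1.06 CPM. In each of these 4 genes replicate 2 lay inside or below the unamputated range and the other two lay above it.

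With all libraries the log2 fold changes were 2.06 ± 0.62 for Col1a1, 1.70 ± 0.52 for Col1a2, 1.61 ± 0.55 for Col11a1 and 2.22 ± 0.72 for Col24a1, with edgeR adjusted p of 0.0913, 0.0926, 0.116 and 0.0996. Without amputated day 14 replicate 2, in a fit whose share over all genes is not given here, 7 members were called higher (Col1a1, Col1a2, Col8a1, Col11a1, Col13a1, Col16a1 and Col24a1) and 1 lower (Col28a1), with Col1a1 at 2.54 ± 0.35 (adjusted p 0.0225) and Col1a2 at 2.14 ± 0.32 (0.0286). That library was low in bone genes too: osteoblast markers summed to 409, 118 and 401 CPM in amputated day 14 libraries, against 92 to 130 CPM in unamputated ones, and Bglap, which encodes osteocalcin, was at 104, 31.1 and 106 CPM, against 45.6, 29.7 and 23.7 CPM. The part of bone content in the collagen values was not tested.

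**Figure D5:**
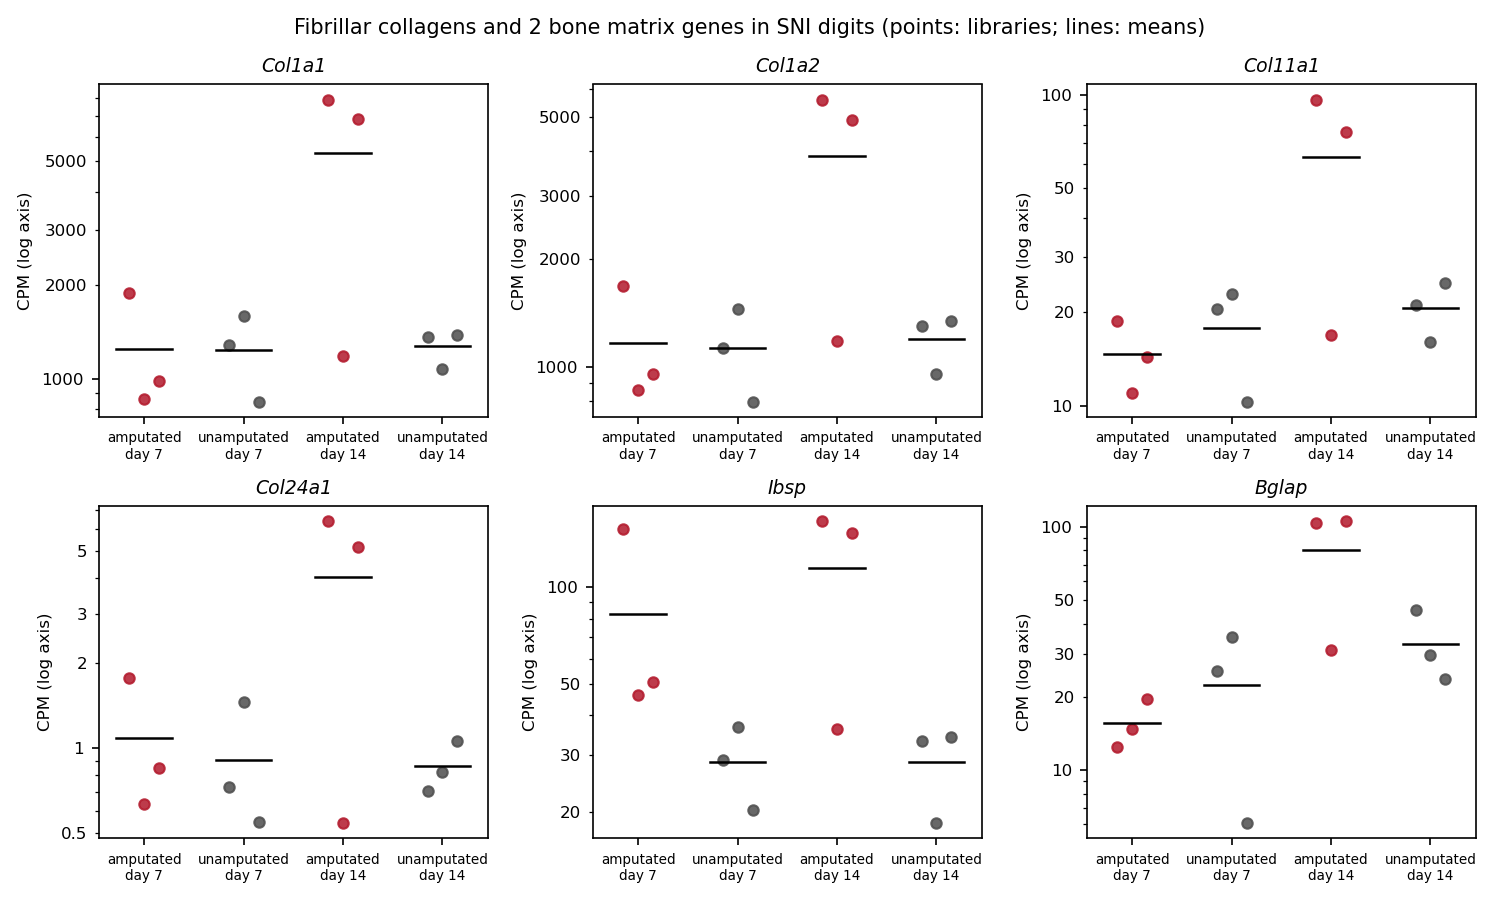
CPM on log axes of Col1a1, Col1a2, Col11a1 and Col24a1 and of the bone matrix genes Ibsp and Bglap in the 12 SNI libraries of the amputation table; points are libraries and lines are group means. In amputated day 14 digits, 2 libraries lie high in all 6 genes and replicate 2 lies near the unamputated libraries.

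Beyond the fibrillar class, 2 members had every amputated library above every unamputated one on day 14, Col6a4 and Col9a1 (15.9% of genes), and 5 had the reverse, Col4a3, Col4a4, Col17a1, Col20a1 and Col28a1 (16.7%). Col9a1 was at 0.911, 0.241 and 0.584 CPM in amputated libraries, against 0.154, 0.170 and 0.0544 CPM in unamputated ones (2.20 ± 0.66, adjusted p 0.0766, edgeR). Col8a1, a short-chain network collagen of vessels, was at 39.8, 19.6 and 45.3 CPM, against 16.4, 16.4 and 22.8 CPM (0.91 ± 0.26, adjusted p 0.0729). The most negative value, -2.86 ± 0.95 for Col6a5 (adjusted p 0.103), came from 0.140, 0.361 and 0.227 CPM in amputated libraries, against 1.72, 3.47 and 0.0815 CPM in unamputated ones, so the groups overlapped.

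Col17a1 was at 976, 832 and 948 CPM in amputated day 14 libraries, against 1070, 1233 and 1113 CPM in unamputated ones (-0.31 ± 0.13, adjusted p 0.161, edgeR). Keratinocyte markers summed to 48000 to 51600 CPM in amputated day 14 libraries, against 55000 to 57100 CPM in unamputated ones, and all 4 were found. Their part in the Col17a1 values was not tested.

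Whether the amputation effect differed between the days was tested as an interaction. No collagen and 0% of genes were called in edgeR, and 6 members had an unadjusted p under 0.05 (6.25% of genes), while DESeq2 and voom called 0 members. The smallest p values were those of Col28a1 at -0.80 ± 0.28 and Col9a1 at 2.37 ± 0.91 (adjusted p 0.772 each) and Col11a1 at 1.90 ± 0.77 (0.773). A difference between days in the amputation effect was thus not called for any collagen, Col1a1 included (2.05 ± 0.85, adjusted p 0.784).

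Within the amputated digits, day 14 against day 7 gave no called collagen in edgeR, against 0.607% of genes, and 13 members at an unadjusted p under 0.05 (13.3% of genes). This comparison shares the amputated day 14 libraries with the one above. The smallest p values belonged to Col28a1 at -0.84 ± 0.20 (adjusted p 0.103), Col11a1 at 2.10 ± 0.56 (0.166) and Col4a3 at -0.84 ± 0.26 (0.206), and Col1a1 was at 2.09 ± 0.62 (0.211). DESeq2 called 4 members and voom 2, and without amputated day 14 replicate 2 edgeR called 6, all higher, with Col1a1 at 2.57 ± 0.35 (0.0244). The shares over all genes of these alternative fits are not given here.

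Within the unamputated digits, day 14 against day 7 gave no called collagen, against 0.303% of genes, and 2 members at an unadjusted p under 0.05 (4.97% of genes), with 0 called by DESeq2 and voom. Col10a1 was at 10.1, 15.4 and 12.4 CPM in unamputated day 14 libraries, against 17.3, 22.4 and 19.5 CPM in day 7 libraries, with no overlap (-0.64 ± 0.18, adjusted p 0.361, edgeR). Col6a5 was at 1.97 ± 0.89 (0.995) and Col9a2 at -0.58 ± 0.29 (1.0).

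Genes that fold, trim, bind or cut collagen were described next to the members. Of 21 genes of collagen folding and modification, 2 rose in amputated digits on day 14 (1.32% of all genes), 12 had an unadjusted p under 0.05 (24% of all genes), 11 of them higher, and 18 had a positive value (median 0.32). Serpinh1, which encodes the collagen chaperone HSP47, was at 242, 174 and 232 CPM in amputated libraries, against 126, 121 and 132 CPM in unamputated ones (0.77 ± 0.18, adjusted p 0.0462, edgeR). Ppib, a prolyl isomerase that aids helix folding, was at 178, 206 and 190 CPM, against 147, 144 and 149 CPM (0.39 ± 0.09, adjusted p 0.0422). Replicate 2 was thus not low in Ppib and was the lowest of the amputated day 14 libraries in Serpinh1.

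Of 12 tested genes of procollagen cleavage and cross-linking, 1 fell on day 14 (1.44% of all genes), Adamts14, a procollagen N-proteinase, at 7.97, 5.24 and 7.36 CPM in amputated libraries, against 10.4, 14.7 and 12.8 CPM in unamputated ones (-0.88 ± 0.20, adjusted p 0.0414, edgeR). Of 9 collagen receptors, 1 fell on day 7, when 1.35% of all genes were called in either direction. It was Lair1, an inhibitory receptor of immune cells, at 1.80, 0.965 and 1.87 CPM in amputated libraries, against 2.68, 4.42 and 9.28 CPM in unamputated ones (-1.82 ± 0.40, adjusted p 0.0464, edgeR). Genes of these lists were not followed in the alternative fits. Of 6 collagen-cleaving enzymes, none was called in edgeR in these comparisons and 3 on day 7 (15.1% of all genes) and 4 on day 14 (24% of all genes) had an unadjusted p under 0.05, all higher. Mmp13, the collagenase of bone and healing wounds, was at 279, 38.3 and 33.5 CPM in amputated day 7 libraries, against 2.65, 4.10 and 16.9 CPM in unamputated ones (3.90 ± 1.06, adjusted p 0.139).

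In the SNI comparison no gene of these lists was called in edgeR. Averaged over days, 3 of the 6 cleaving enzymes had an unadjusted p under 0.05 (14% of all genes), all higher in SNI digits: Ctsk, the osteoclast cathepsin, at 1.19 ± 0.40, Mmp8, the neutrophil collagenase, at 2.56 ± 0.99 and Mmp13 at 1.29 ± 0.57 (adjusted p 0.337, 0.337 and 0.352). Mmp8 was at 144 CPM in SNI day 7 replicate 2, the library with high neutrophil markers, and at 0.0539 to 1.58 CPM in the other time course libraries. The folding list had 12 of 21 values positive (median 0.10), the cleavage and cross-linking list 3 of 12 (median -0.20) and the receptors 2 of 9 (median -0.31).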

How the data were processed

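RNA was measured in 29 libraries made from 500 ng of total RNA with poly(A) selection, a strand-specific kit and 9 PCR cycles, per the labels' protocols. The authors deposited raw counts per gene in 2 tables, on GRCm39 per the submitters' processing notes; no source used here names the aligner or counter. Ensembl identifiers were turned into symbols, and 99.5% of them got one.

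Each table was fitted on its own with edgeR 4.0.16 (R 4.3.3): TMM scaling, a filter on low counts (minimum count 10, minimum total 15), robust quasi-likelihood tests over all groups of the table, and Benjamini-Hochberg adjustment over 16084 and 17475 tested genes at 0.05. The quasi-likelihood test gives no SE. The SE printed for edgeR values is the absolute log2 fold change divided by the square root of the F statistic, so it need not match that of DESeq2. CPM used TMM-scaled library sizes, and TPM used GENCODE transcript lengths. The fits were tested on simulated data. Of simulated 2-fold changes, 5.97% were recovered in SNI against sham on day 7 and 71.6% in amputated against unamputated digits on day 7. For 4-fold changes the shares were 68.7% and 98.5%. Only genes with a mean of at least 1 CPM were changed, and all libraries were drawn around the same gene means. The simulation thus did not cover the low members or shifts of whole libraries like those of the time course. Alternatives were DESeq2 1.42.0, limma 3.58.1 voom with quality weights, other size factors, no filter, the compared groups alone, a replicate block, each library left out, low TMM factors (under 0.8) left out, and 1 surrogate variable (sva 3.50.0). Promoter sequences came from RefSeq on GRCm38.p6, another build than that of the counts.

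Same-numbered SNI and sham day 14 samples had r of 0.243, 0.147 and 0.105 between their deviations from group means, all over the limit of 0.1 set for this check. On day 7 r was 0.387, 0.241 and -0.093, and the other comparisons also fell short in at least 1 replicate. With so few libraries per group, such values can come from the order of the libraries alone. They do not show that the numbers pair samples. The text names members called, or the 3 with the smallest p where fewer than 3 were called, and for levels the first gene of each class and the chains of the main types; other genes were named after their values were seen. The members and lists were chosen with earlier results of these data known. A marker gene is not reported here and was left out of its list.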

Additional observations from a re-analysis of the deposited data

How the results depend on the processing

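Over 45 results for single genes, 589 of 637 alternative values kept their direction and side of the threshold, 15 lost the call, 28 gained it and 5 reversed. The reversals were Col28a1 at 0.48, Col6a3 at 0.60 and Col20a1 at 2.49 (SNI against sham, day 21, without sham day 21 replicate 2), Col12a1 at -0.30 (SNI, day 14 against day 7, without SNI day 14 replicate 1) and Col25a1 at -0.10 (the same comparison with voom); the cause was not tested. With 1 library left out, these ranged from -2.40 to 0.48 for Col28a1, -2.05 to 0.60 for Col6a3, -2.09 to 2.49 for Col20a1 and -0.30 to 2.97 for Col12a1. Of 288 counts of called members, 265 stayed within 1.5 times the main count. The main count was 0 in every comparison except amputated against unamputated on day 14. In those comparisons a count was scored as kept only when it was 0 again. DESeq2 called 1 member in the averaged SNI comparison, 1 and 11 in amputated against unamputated digits on days 7 and 14, and 4 in amputated digits between days. Voom called 29 on day 7 and 32 on day 14 in SNI against sham, 14 in sham between days 7 and 14, 1 and 21 in amputated against unamputated digits on days 7 and 14, and 2 in amputated digits between days. Amputated against unamputated on day 14 gave 1 with the replicate block, 1 with the compared groups alone and 2 without the filter, against 3. The block changed no call in SNI against sham on day 14, with 0 called, and moved the median from -0.65 to -0.89. Leaving out 1 library gave 0 to 1 called members in amputated against unamputated on day 7, 1 to 8 on day 14, and 0 to 6 in amputated digits between days. The count also moved in sham digits, day 21 against day 7, without sham day 21 replicate 2. That fit left 1 library in the sham day 21 group, and its median was -2.41. Low counts limit Col4a3, Col6a4, Col6a5 and Col6a6, and the wide spread of the time course limits all its comparisons.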
